A study of Mus musculus and synthetic RNA with 74 samples.

Results

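The genes described here are named as protein subunits of the mitochondrial ribosome, which does not hold for the product of Mrps36, as given below. All were chosen by name, as every gene whose symbol is Mrpl or Mrps followed by a number and at most 1 letter. They were 78 genes, of 20330 genes listed for embryos at E2.5 and 21199 at E3.5, and all 78 were listed at both stages. By name, 49 belong to the large subunit (Mrpl) and 29 to the small subunit (Mrps). The mitochondrial ribosome translates the few messenger RNAs that the mitochondrial genome encodes, all of them for subunits of the respiratory chain and of ATP synthase. Its RNAs are made inside the organelle, but all of its proteins are encoded in the nucleus, made in the cytosol and imported. Some have bacterial homologs, and others were added in the mitochondrial lineage.

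The embryos came from crosses between mice heterozygous for a Mettl16 allele of line #2112, in which a triple-stop cassette had been put into exon 3 of the gene for this RNA methyltransferase in B6D2F1/J embryos, and founders were crossed to C57BL/6JRj. Polyadenylated RNA of single embryos was sequenced with the Smart-seq2 protocol, which keeps no information on strand. The 31 embryos at E2.5 (morula) comprised 12 KO, 14 HET and 5 WT, and the 39 embryos at E3.5 (blastocyst) 12 KO, 9 HET and 18 WT. Only the authors' mean over all embryos of a stage was used here, all 3 genotypes pooled, so no value carries an error between embryos, no test was possible and genotypes were not compared. Mettl16 itself had pooled means of 778 and 669 normalized counts at the 2 stages, which are no check of the genotypes. Every difference given is therefore a description of 2 means.

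The means of each stage were normalized by themselves. They summed to 23557112 normalized counts at E2.5 and 27145016 at E3.5, and levels of the stages were set side by side as a share of these sums. Of 10 embryo markers, all were listed at both stages, between 13.6 and 9017 normalized counts at E2.5 and between 165 and 35173 at E3.5. By share, 7 of them were higher at E3.5 and 3 lower. Among genes of the trophectoderm, the outer cell layer of the blastocyst, Krt8 had 651 and then 30838 normalized counts and Cdx2 171 and then 1940, while Tfap2c had 5278 and then 1849. The pluripotency factor Pou5f1 had 9017 and then 3527 and Nanog 552 and then 4161, and Gata6, of the primitive endoderm, had 3569 and 3676. The 6 oocyte genes summed to 2158 and 151 normalized counts, markers of cumulus cells to 6.43 and 10.6 with Ptgs2 not listed, and markers of fibroblasts and uterus to 15.2 and 14.5. Of the blood markers, Hba-a1 stood at 49.6 and 12.0 normalized counts and the others at no more than 1.34. The genotype mix, the collection and the normalization differ between the stages and cannot be told apart from embryonic age, and in whole embryos more cells of a type cannot be told apart from more RNA per cell.

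The mitochondrial ribosomal protein genes were among the well expressed genes of both stages. The median member had 1606 normalized counts at E2.5 and 2659 at E3.5, at percentile 88.3 and 91.6 of all genes listed. No member was near 0. The lowest at E2.5 was Mrps36 with 169 normalized counts, at percentile 65.0, and the lowest at E3.5 was Mrpl38 with 691, at percentile 76.4. After Mrps36, the lowest at E2.5 was Mrpl1 with 502, at percentile 76.6. The highest were Mrps18b with 10919 normalized counts at E2.5 and Mrpl51 with 10534 at E3.5. All members together made up 0.697% of the summed means at E2.5 and 0.957% at E3.5. The large subunit accounted for 0.452% and 0.645%, and the small subunit for 0.245% and 0.312%.

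To compare genes with each other, levels were divided by the kb of RefSeq exons of the gene, merged over its transcripts. Long annotated exons therefore lower the value per kb, whether or not the transcripts in the embryos contain them. Per kb, the medians of the subunits were close. The median large subunit gene had 1554 normalized counts per kb at E2.5 and the median small subunit gene had 1492, a ratio of 1.04. At E3.5 these medians were 2492 and 2529 per kb, a ratio of 0.985. Members spread far more within a subunit than between the subunits, from 120 to 9894 per kb in the large subunit at E2.5 and from 135 to 10369 in the small one. For scale, the median per kb over the 82 protein genes of the cytosolic ribosome, which translates the messenger RNAs of the nucleus, was 34622 at E2.5 and 59167 at E3.5. The median over 76 nuclear genes of oxidative phosphorylation, chosen by symbol, was 2937 and 7408 per kb. Most of their products, but not all, join the proteins made by the mitochondrial ribosome. All genes with a mean of at least 10 at either stage had medians of 59.9 and 103 per kb.

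**Figure D1:**
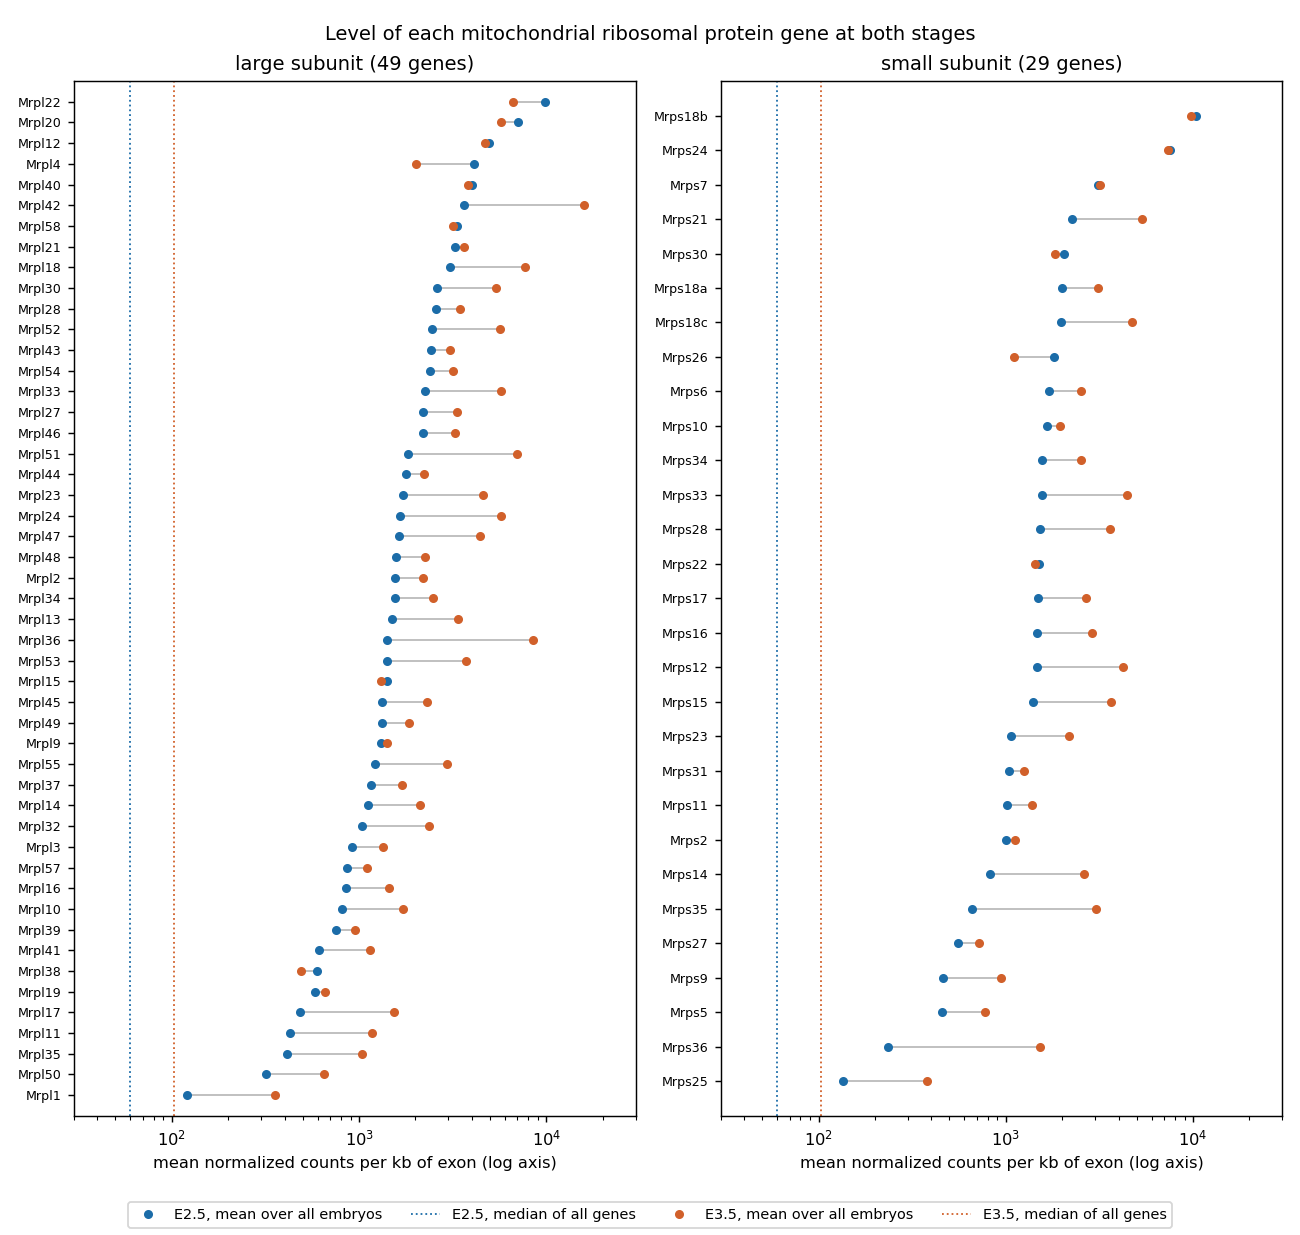
Level of each of the 78 genes in mean normalized counts per kb of exon (log axis), large subunit on the left and small on the right, sorted by the level at E2.5. Blue points are the mean over all embryos at E2.5 and orange points that at E3.5, and dotted lines mark the median of all genes, 59.9 and 103 per kb. All members lie to the right of both lines, and the grey bars that join the stages are long for Mrpl42, Mrpl36 and Mrps36 and short for most genes at the top.

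At E2.5, 3 genes of the large subunit stood above the others. Mrpl22, on chr11:58171654-58179580 of mm10, had 9894 normalized counts per kb. Its protein is the homolog of a bacterial protein that lines the tunnel through which the new chain leaves the ribosome. Mrpl20 had 7085 per kb, and Mrpl12, a protein of the stalk that recruits translation factors, had 4957 per kb. Mrpl4, which also reaches the exit tunnel, followed with 4105 per kb and Mrpl40, specific to mitochondria, with 4011. These 5 genes were not the highest at E3.5, apart from Mrpl22, which was the fifth with 6673 per kb. The first at E3.5 was Mrpl42, specific to mitochondria, with 15797 normalized counts per kb, after 3623 at E2.5. It was followed by Mrpl36 with 8460 per kb, Mrpl18 with 7730 and Mrpl51 with 6953. At the low end, Mrpl1 had 120 and 357 normalized counts per kb at the 2 stages and was last at both. The homolog of Mrpl1 in bacteria forms the mobile stalk beside the site where tRNA leaves. Mrpl50 had 319 and 651 per kb, Mrpl35 stood next above it at E2.5 with 411, and Mrpl38 was second from the end at E3.5 with 490. Mrpl35 has 3.695 kb of exons and had 1518 and 3847 normalized counts, so its low place came with the division by length.

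The small subunit kept the same genes at its head at both stages. Mrps18b, on chr17:35910385-35916369, had 10369 normalized counts per kb at E2.5 and 9791 at E3.5. Mrps24 was second at both, with 7546 and 7376 per kb. At E2.5 they were followed by Mrps7 with 3102 per kb, Mrps21 with 2243 and Mrps30 with 2055, so a gap separated the first 2 genes from the rest. At E3.5 the next were Mrps21 with 5307 per kb, Mrps18c with 4691 and Mrps33 with 4442. The lowest at both stages was Mrps25, with 135 and 381 normalized counts per kb. Mrps25 has 6.076 kb of exons and had 822 and 2314 normalized counts before the division by length. Its exons share 3547 bases with exons of Nr2c2 on the other strand, and reads from this stretch cannot be assigned without strand. Mrps36 had 236 per kb at E2.5 and 1526 at E3.5, and Mrps5 had 454 and 770. Mrps27 was second from the end at E3.5 with 722 per kb.

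Mammals have 3 paralogs of the bacterial ribosomal protein S18, and their levels differed. Mrps18b stood at 10369 normalized counts per kb at E2.5, Mrps18a at 2006 and Mrps18c at 1975. At E3.5 the values were 9791 for Mrps18b, 3101 for Mrps18a and 4691 for Mrps18c. Mrps18b was thus far above both at each stage, while Mrps18a and Mrps18c were almost equal at E2.5. Structures of the mammalian mitochondrial ribosome place the protein of Mrps18a in the large subunit despite its name, and that of Mrps30 as well. The product of Mrps36 is known as a subunit of the 2-oxoglutarate dehydrogenase complex. With Mrps18a and Mrps30 counted as large and Mrps36 left out, the ratio of the subunit medians per kb was 1.05 at E2.5 and 0.968 at E3.5.

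The order of the members by level was kept in part between the stages. Spearman's rho between the levels at E2.5 and E3.5 was 0.673 over the 78 genes, 0.686 within the large subunit and 0.538 within the small one. These are correlations across genes of 2 pooled means, which share gene length and base composition, and genes are not independent replicates.

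The share of the summed means was higher at E3.5 than at E2.5 for 60 of the 78 genes and lower for 18. The difference exceeded 2-fold upward for 24 members (30.8%), against 35.3% of the 14120 genes with a mean of at least 10 at either stage, and downward for 1 member (1.28%), against 19.5% of these genes. The median log2 difference of the members was 0.52, and that of all genes was 0.41. Relative to this shift the members were higher by 0.11 on the log2 scale, and 18 of the 60 genes that were higher lay below the median gene, so that their direction turns when the median gene is set to 0. Members were more alike than genes at large, with quartiles of 0.07 and 1.11 on the log2 scale against -0.65 and 1.502. This was not particular to them. Genes of the cytosolic ribosome, with quartiles of 0.21 and 0.90, and of oxidative phosphorylation, with 0.86 and 1.67, lay closer together than the members. Among the 4550 genes with a mean of at least 1000 at either stage, a filter chosen after the data had been seen, the median was 0.19, 28.4% were 2-fold higher and 20.4% were 2-fold lower. For the 77 members past this filter the median was 0.55, with 31.2% higher and 1 gene lower. The members' share past 2-fold upward was therefore near that of other genes under both filters, and the share past 2-fold downward was below it. The nearness depends on the scaling. With the median ratio over genes of at least 100 at both stages set to 1, 17 of the 78 members were 2-fold higher, a share below the 31.1% of all genes.

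**Figure D2:**
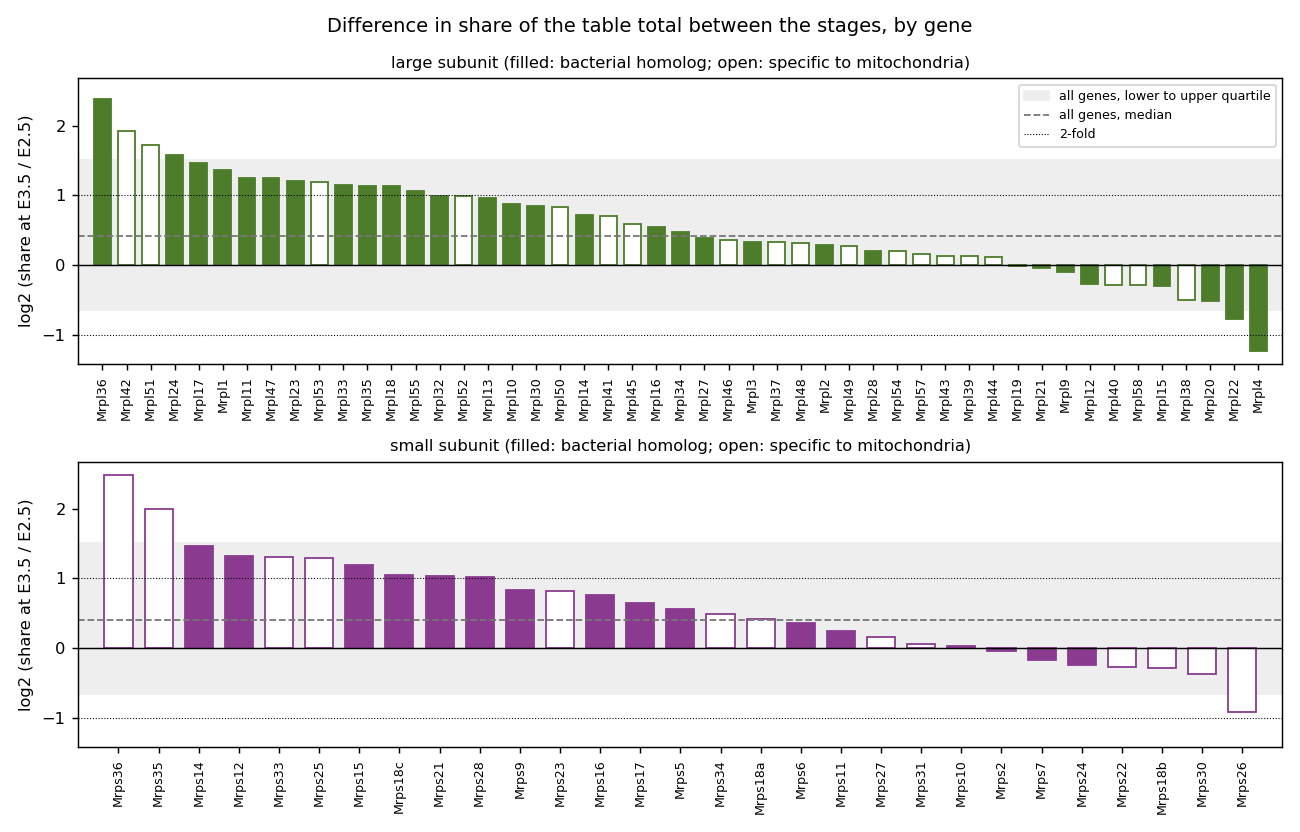
Log2 ratio of the share of the summed means at E3.5 to that at E2.5 for each gene (bars), large subunit above and small below, sorted by value. Filled bars are genes with bacterial homologs and open bars genes counted as specific to mitochondria. The dashed line is the median of all genes at 0.41, the grey band their quartiles and dotted lines mark 2-fold. The bars run from 2.49 for Mrps36 to -1.23 for Mrpl4, the gene that passes the lower dotted line.

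In the large subunit, 14 of 49 genes were at least 2-fold higher at E3.5, 1 was at least 2-fold lower, and the median log2 difference was 0.48. Mrpl36, the homolog of the smallest protein of the bacterial large subunit, had 1274 normalized counts at E2.5 and 7631 at E3.5, a 5.20-fold larger share. Mrpl42 had 2413 and 10521 normalized counts, 3.78-fold by share, and Mrpl51, another protein specific to mitochondria, had 2768 and 10534, 3.30-fold. Mrpl24 had 1570 and 5417 normalized counts, 2.99-fold by share, and Mrpl17 had 3245 and 10331, 2.76-fold. Exons of Mrpl24 share 355 bases with exons of Rrnad1 on the other strand. Per kb these genes lay far apart at E3.5, with Mrpl42 at 15797 normalized counts per kb, Mrpl36 at 8460, Mrpl51 at 6953, Mrpl24 at 5709 and Mrpl17 at 1539. Mrpl17 and Mrpl42 were close in normalized counts, but their exons span 6.712 and 0.666 kb, so their gap came with the division by length.

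At the other end, Mrpl4 had 5292 normalized counts at E2.5 and 2602 at E3.5, and its share at E2.5 was 2.34 times that at E3.5. Mrpl22 had 7361 and 4965 normalized counts, 1.71-fold lower by share at E3.5. Mrpl20 had 4712 and 3799, 1.43-fold lower, and Mrpl38 had 844 and 691, 1.41-fold lower. Mrpl15 had 5898 and 5507 normalized counts, 1.23-fold lower by share. Of these, Mrpl22, Mrpl20 and Mrpl4 were among the 4 highest of the subunit per kb at E2.5. Across the 78 members the level at E2.5 and the log2 difference had a Spearman's rho of -0.56, and across all genes of -0.39. The E2.5 mean enters both measures.

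In the small subunit, 10 of 29 genes were at least 2-fold higher at E3.5 and 0 were 2-fold lower, with a median log2 difference of 0.56. With subunits by structure, which leaves out Mrps36, these were 9 of 26 genes, with a median of 0.60. Mrps36 had 169 normalized counts at E2.5 and 1093 at E3.5, 5.61-fold by share. RefSeq names 3 pseudogenes of Mrps36, and reads may be split between such copies. Mrps35, specific to mitochondria, had 704 and 3243 normalized counts, 4.00-fold by share. Mrps14 had 1627 and 5163, 2.75-fold, and Mrps12, whose bacterial homolog contributes to decoding of the codon, had 1000.3 and 2882, a log2 difference in share of 1.32. Mrps33 had 1640 and 4686 normalized counts, 2.48-fold by share. The lowest was Mrps26, specific to mitochondria, with 1736 and 1059 normalized counts and a 1.89-fold lower share at E3.5. Mrps30 had 3268 and 2921 normalized counts, 1.29-fold lower by share, Mrps18b 10919 and 10310, 1.22-fold lower, Mrps22 1831 and 1745, 1.21-fold lower, and Mrps24 7598 and 7427, or 0.848 times the share at E2.5. For Mrps18b the size of the fall depends on the measure, with a log2 difference of -0.29 here and -0.81 from reads summed over exons. Of the S18 paralogs, Mrps18c was 2.06-fold higher by share and Mrps18a 1.34-fold.

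With subunits by name and classes as assigned here, the genes with bacterial homologs had the larger median difference within both subunits. In the large subunit the median log2 difference was 0.78 over 30 genes with bacterial homologs, of which 11 were 2-fold higher, and 0.32 over 19 genes specific to mitochondria, of which 3 were. In the small subunit it was 0.70 over 16 genes, of which 6 were 2-fold higher, and 0.42 over 13 genes, of which 4 were. Over all genes the median was 0.41 and 35.3% were 2-fold higher, so the genes specific to mitochondria lay below this median in the large subunit and close to it in the small one. The shares past 2-fold, 36.7% and 37.5% of the genes with bacterial homologs and 30.8% of the small subunit genes specific to mitochondria, were near that of all genes, and 15.8% of the large subunit genes specific to mitochondria was below it. Of the S18 paralogs, only Mrps18c was counted among the genes with bacterial homologs. Mrps18a and Mrps18b were therefore counted as specific to mitochondria, and so were Mrps30 and Mrps36. Whether the contrast within the small subunit holds with these genes moved or left out was not tested. The ranges of the classes overlapped widely, since Mrpl36 and Mrpl4 both have bacterial homologs and Mrps36 and Mrps26 both count as specific to mitochondria.

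Genes that work with the mitochondrial ribosome were set beside the members. Of the mitochondrial ribosomal proteins that carry other names, 5 were listed. Dap3, the GTP-binding protein of the small subunit, had 916 normalized counts at E2.5 and 5235 at E3.5, a log2 difference in share of 2.31. Chchd1 had 910 and 2377 normalized counts, Aurkaip1 stood at 0.65 and Ptcd3 at 0.58 on this scale, while Gadd45gip1 had 3294 and 2321 normalized counts and a log2 difference of -0.71. Of 15 translation factors and related genes, 7 (46.7%) were at least 2-fold higher at E3.5 and 0 lower, with a median log2 difference of 0.97. Over all genes 35.3% were higher and 19.5% lower. They included the initiation factor Mtif2, at 438 and 1200 normalized counts, and Gfm2, at 421 and 1131. The most abundant of the factors at E2.5, the elongation factor Tufm, had 4227 and 3207 normalized counts. Of 20 assembly and rRNA modification genes, 2 (10%) were at least 2-fold higher at E3.5 and 4 (20%) lower, with a median log2 difference of -0.05. The share of lower genes was thus near the 19.5% of all genes, and the share of higher genes was below the 35.3%. The 4 lower genes were Rbfa, which matures the small subunit, Dhx30, an RNA helicase, Noa1, a GTPase of small subunit assembly, and Mrm3, which methylates the large ribosomal RNA. They had log2 differences of -1.53, -1.34, -1.21 and -1.47. The 2 higher genes were Tfb1m and Mettl15, methyltransferases of the small ribosomal RNA, with 2.06 and 1.82.

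The nuclear genes of oxidative phosphorylation had a median log2 difference of 1.38, and 51 of 76 (67.1%) were at least 2-fold higher at E3.5 and 0 lower. Those of the cytosolic ribosome had a median of 0.60, with 16 of 82 higher (19.5%) and 2 lower. The medians of the mitochondrial ribosomal subunits, 0.48 and 0.56, lay between that of all genes, 0.41, and that of the cytosolic ribosome, and below that of oxidative phosphorylation. Their shares past 2-fold upward, 28.6% of the large and 34.5% of the small subunit, were nearer to the 35.3% of all genes than to that of the cytosolic ribosome.

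**Figure D3:**
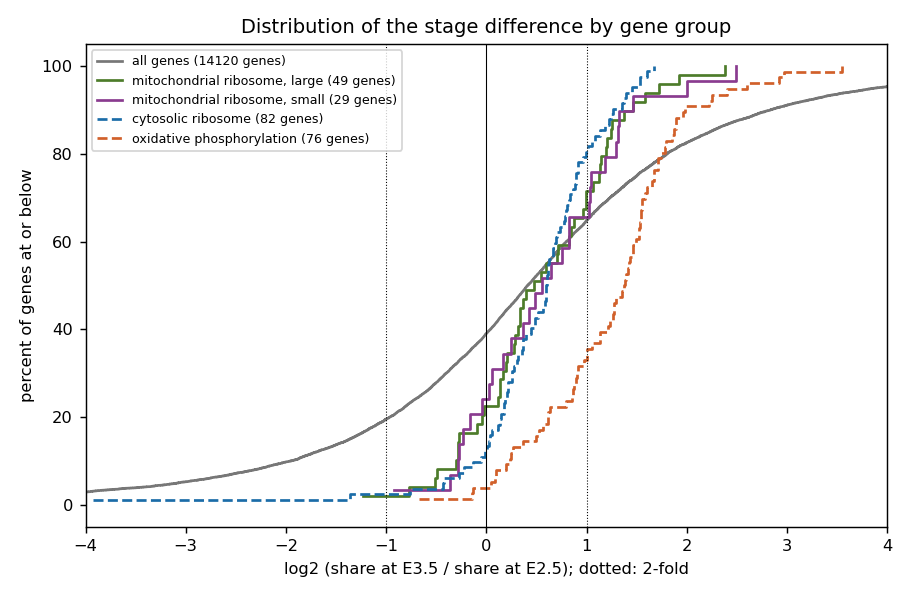
Cumulative distribution of the log2 ratio of the share at E3.5 to that at E2.5 (horizontal axis) in percent of genes (vertical axis), for the large and small mitochondrial ribosomal subunits, the cytosolic ribosome, oxidative phosphorylation and all genes. The curves of the mitochondrial ribosome cross 50 percent at 0.48 and 0.56, between all genes at 0.41 and the cytosolic ribosome at 0.60, while oxidative phosphorylation crosses at 1.38. The curve of all genes is the widest of the 5.

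Reads over single exons and introns gave a second view of the same libraries. Summed over exons, the levels followed the Salmon levels across the 78 genes with a Spearman's rho of 0.888 at E2.5 and 0.884 at E3.5, and the log2 differences between stages with 0.982. The levels themselves were higher in the exon sums, with a median over members of 2787 per kb at E2.5 and 3325 at E3.5 in place of 1505 and 2528. Of the 24 genes 2-fold higher at E3.5, 22 were so in the exon sums, which gave 23. The last exon of single-transcript members had 0.487 times the level per kb of the first at E2.5 and 0.884 times at E3.5 (medians of 68 genes), against 0.653 and 1.95 over all single-transcript genes. The balance of coverage along transcripts thus differed between the stages in members and in other genes, and its part in the stage differences was not tested.

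Introns of the members carried little signal. The level per kb of introns was 0.350% of that of exons in the median member at E2.5 and 0.344% at E3.5, against 0.939% and 1.64% over all genes with summed exon means of at least 100. Those genes were not matched to the members in level, and the part of level in this difference was not tested. At least 5% was reached by 7 members (8.97%) at E2.5 and 5 (6.41%) at E3.5, against 9.91% and 18.5% of all genes. The highest was Mrpl57, where the one intron, chr14:57826323-57826508, stood at 59.8% and 58.7% of the level of the exons. This intron had a mean of 122 and 113 normalized reads, and the second exon, which spans 2237 bases, 1826 and 2002. Mrpl15 had 16.5% and 19.5%, and Mrps2 11.8% and 5.78%. In both genes these values came from introns that hold an exon of another transcript of the same gene. Without such introns Mrpl15 stood at 1.10% and 2.94% and Mrps2 at 1.71% and 0.977%. Mrpl41 had 8.66% and 6.73%, and Mrps34 7.38% and 8.26%, both without such an exon. Of the 350 introns of the members, 19 hold an exon of their own gene, and without them the member medians were 0.283% and 0.325% and those of all genes 0.734% and 1.37%. Mrps36, the member with the largest ratio of shares, had 4.57% at E2.5 and 0.331% at E3.5, while its introns together were lower in reads at E3.5 and its exons higher.

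**Figure D4:**
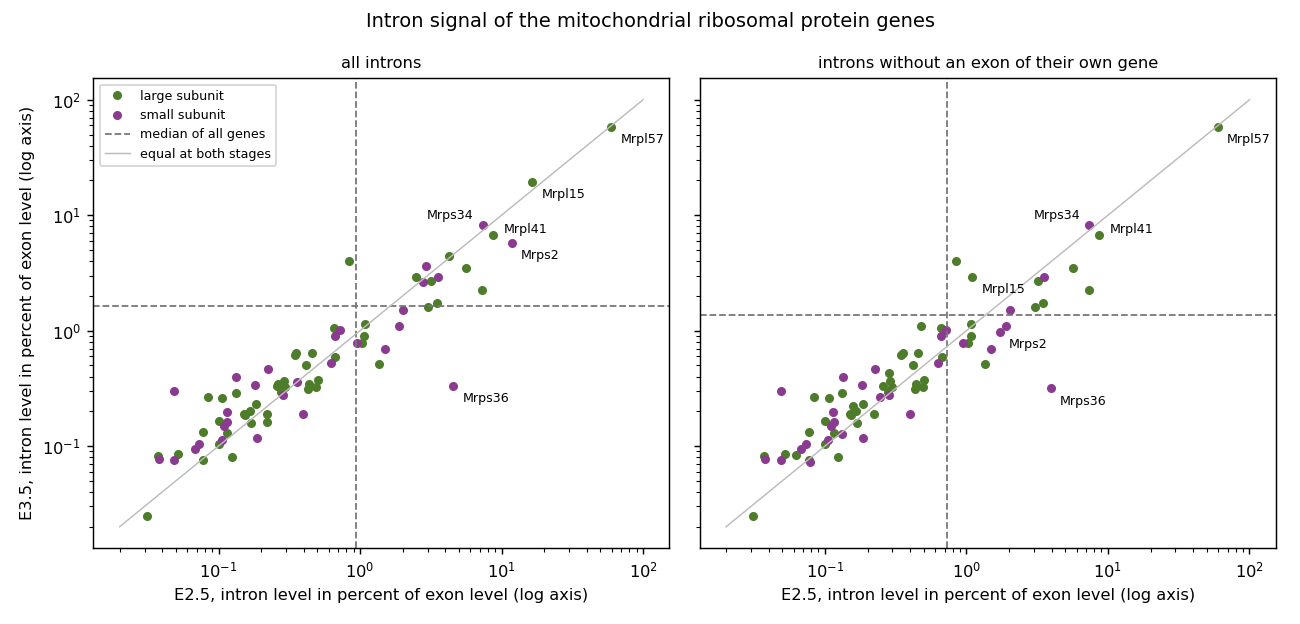
Intron level per kb in percent of exon level per kb at E2.5 (horizontal, log axis) and E3.5 (vertical, log axis) for each member, with all introns on the left and without introns that hold an exon of their own gene on the right. Dashed lines mark the medians of all genes, 0.939 and 1.64 percent on the left, and most members lie below and to the left of both. Mrpl57 stays near 60 percent in both panels, while Mrpl15 and Mrps2 move down on the right.

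The members lie on 17 chromosomes, with 11 of the 78 on chromosome 11 and 8 on chromosome 17. The shares of all genes on these chromosomes were not computed, so the counts show no concentration. Mettl16 also lies on chromosome 11, where the paper raises mixed strain sequence as a possible source of differences between genotypes. Many members start near a gene on the other strand, and whether they share a promoter was not tested. A start of a gene transcribed in the opposite direction lay at most 1000 bases away for 27 members (34.6%), against 13.4% of 13881 genes with a mean of at least 10. Among them Mrpl46 and Mrps11, 1 gene of each subunit, start 42 bases apart on chromosome 7. Their shares were 1.29-fold and 1.19-fold higher at E3.5. Mrpl47 starts 308 bases from Ndufb5, a subunit gene of respiratory complex I, and Mrps12 starts 187 bases from Sars2, the mitochondrial seryl-tRNA synthetase.

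Promoter windows of RefSeq (GRCm38, 250 bases before to 50 after the start) were given for 69 of the 78 members and searched on both strands for 3 motifs known from promoters of such genes. These were GCGCATGC, a site of NRF1, a factor named for its role in respiratory genes, CCGGAAG, a core of ETS factor sites, and AAGATGGC, a site of YY1. The motifs do not contain each other. The NRF1 motif was in 8 windows (11.6%), 7 of the large subunit and 1 of the small, against 5.81% of 10885 listed genes that had a mean of 10 or more at either stage. The ETS motif was in 26 (37.7%) against 19.1%, and the YY1 motif in 12 (17.4%) against 5.08%. At least 1 motif was in 38 windows (55.1%) against 27.2%. The median log2 difference between stages was 0.51 in members with the NRF1 motif and 0.56 without, 0.45 with the ETS motif and 0.59 without, and 0.38 with the YY1 motif and 0.59 without. A match is a run of letters and not a measured site. The windows printed next belong to genes named above, run from 100 bases before to 30 after the start in the direction of the gene, and have the motif in capitals. Mrpl22 (chr11:58171564-58171693, plus strand), the highest of the large subunit at E2.5, holds an ETS motif at position -53 and an NRF1 motif at -33 from the start. Mrpl17 (chr7:105811058-105811187, minus strand) holds an NRF1 motif at -11. Mrpl36 (chr13:73330909-73331038, plus strand) holds a YY1 motif on the other strand at -30. Both genes were over 2-fold higher at E3.5. In the small subunit, Mrps12 (chr7:28741792-28741921, minus strand) holds an ETS motif at 2 and Mrps7 (chr11:115604040-115604169, plus strand) a YY1 motif at 19.
Mrpl22: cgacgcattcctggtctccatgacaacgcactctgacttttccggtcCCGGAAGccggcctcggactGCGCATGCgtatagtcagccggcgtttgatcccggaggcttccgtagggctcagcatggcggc
Mrpl17: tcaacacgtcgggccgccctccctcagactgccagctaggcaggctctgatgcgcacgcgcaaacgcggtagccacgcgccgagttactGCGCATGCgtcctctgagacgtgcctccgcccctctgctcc
Mrpl36: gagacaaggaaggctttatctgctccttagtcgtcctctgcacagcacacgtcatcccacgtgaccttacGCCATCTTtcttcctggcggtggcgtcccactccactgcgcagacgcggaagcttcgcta
Mrps12: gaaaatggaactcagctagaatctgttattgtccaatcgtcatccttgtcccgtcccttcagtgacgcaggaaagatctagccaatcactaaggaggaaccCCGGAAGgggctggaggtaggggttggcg
Mrps7: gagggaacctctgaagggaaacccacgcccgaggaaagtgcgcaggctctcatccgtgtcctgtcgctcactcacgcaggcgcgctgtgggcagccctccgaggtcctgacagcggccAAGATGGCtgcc
Outside the printed stretches, the searched windows hold a further ETS motif of Mrpl17 at -237 and a YY1 motif of Mrps12 on the other strand at -199. Motifs were found in members that were higher at E3.5 (Mrpl17, Mrpl36, Mrps12) and in members that were lower by share (Mrpl22, Mrps7).

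**Figure D5:**
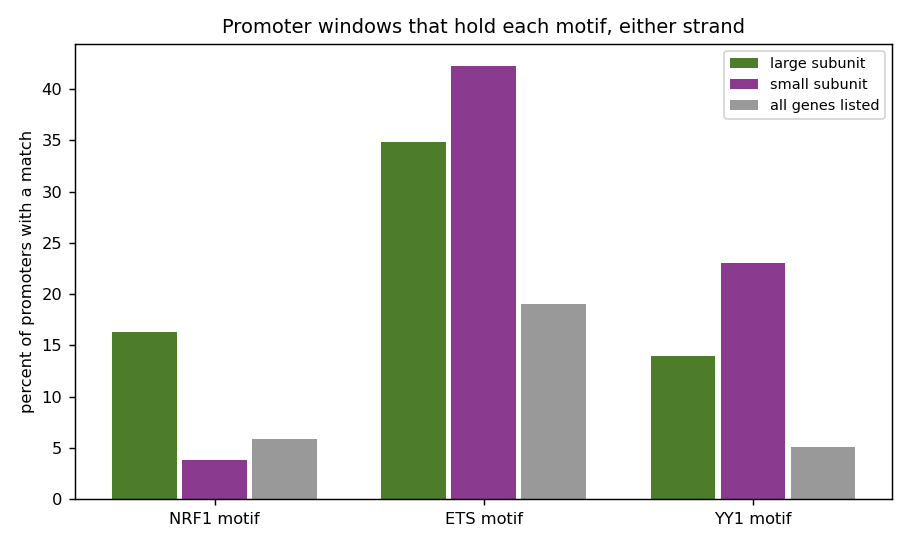
Percent of promoter windows that hold the NRF1, ETS or YY1 motif on either strand, for 43 large subunit genes, 26 small subunit genes and 10885 listed genes (mean of 10 or more at either stage). The ETS and YY1 bars of both subunits exceed the grey bars of all genes, while the NRF1 bar does so for the large subunit, at 16.3 percent, and not for the small, at 3.85 percent.

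Some values are uncertain because reads carried no strand. Exons of 10 members share bases with exons of another gene, in 7 of them on the other strand. The longest overlaps after that of Mrps25 were 1145 bases between Mrpl19 and Gcfc2 and 1002 between Mrpl41 and Dph7. RefSeq names 6 pseudogenes of members, of Mrpl23, Mrpl27, Mrpl48 and Mrps36.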

How the data were processed

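Single embryos at E2.5 and E3.5 were sequenced with Smart-seq2. The authors quantified RefSeq transcripts with Salmon 0.7.2, summed them to genes, aligned reads with STAR to mm10, counted exons and introns with featureCounts, and normalized within a stage. The signal they deposited, used here, is the mean normalized count over all embryos of a stage. The authors' other columns hold fold changes and p-values of DESeq2 1.18.1 between genotypes and were not used. Depth per embryo was not analysed here, so no interval was computed.

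Members and lists were chosen with earlier results of these data known. Levels were divided by kb of merged exons, and stages compared by share of the table total, for genes with a mean of at least 10 at either stage and called past 2-fold. Named were the 5 highest and 3 lowest members of a subunit by level per kb, the 5 largest differences each way, the 5 highest intron percentages, the S18 paralogs, Mrps30 and Mrps36. The comparison genes, the 5% limit for introns and the 1000 bases for neighbours were chosen after the data were seen. Mrpl58 stands under an older symbol in the exon table and was matched through RefSeq synonyms. Alternatives were exon sums, other filters, scalings and folds, subunits by structure and subsets of introns. Tools were Python 3.11.15 with scipy 1.17.1, pandas 2.3.3 and numpy 2.4.6, and the share calculation was tested on simulated data.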

Additional observations from a re-analysis of the deposited data

How the results depend on the processing

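Values are single means over embryos, so no range between embryos could be set against the alternatives, and leaving out single embryos could not be run. No paired analysis was possible because the results come from no test. The median level of the members per kb was 1505 at E2.5 and 2528 at E3.5. From sums over exons it was 2787 and 3325 (the cause was not tested), as a mean over members 1944 and 3134, and not divided by length 1606 and 2659 normalized counts. The ratio of the large to the small subunit was 1.04 and 0.985 at the 2 stages. It was 1.14 and 1.07 from exon sums, 1.15 and 1.23 without division by length, and 1.07 and 1.17 for means. Subunits by structure gave 1.05 and 0.968. Totals gave 1.81 and 1.97, but they sum over 49 and 29 genes and so carry the number of genes as well as the level. Whether the ratio is above 1 at E3.5 depends on this choice. A minimum of 100 at both stages excluded no member, as the lowest means were 169 at E2.5 and 691 at E3.5. It could therefore not change the ratio.

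With the median ratio over genes of at least 100 at both stages set to 1, the median log2 difference of the members went from 0.52 to 0.34, of the large subunit from 0.48 to 0.30 and of the small from 0.56 to 0.38, and 7 of 78 genes changed sign. Exon sums gave 0.51, 0.50 and 0.51, with another sign for 5 genes, and subunits by structure 0.42 and 0.60. The members' median less that of all genes was 0.11, and 0.21 without a filter, 0.12 and 0.36 with minimums of 100 and 1000 (the latter chosen after the data were seen), and 0.19 from exon sums. The 24 genes higher became 17 of 78 with median scaling, all among the 24, a share below the 31.1% of all genes. With exon sums they were 23 (34.9% of all genes). Past 1.5-fold, 37 genes were higher (45.6% of all genes) and 3 lower (26.1%). Genes 2-fold lower were 2 with median scaling (22.3% of all genes) and 2 with exon sums (22.5%). The intron median at E2.5 was 0.350%, 0.321% without introns on exons of other genes and 0.283% without those on exons of their own gene, an alternative chosen after the data were seen. At E3.5 the latter gave 0.325% in place of 0.344%. A minimum of 100 for exons changed neither.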
